A study of Mus musculus with 170 samples.

Results

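The comparison described here sets naive CD4 T cells against naive CD8 T cells from the spleens of young mice, and covers every gene of the deposited counts. Its members are 8 of the 170 libraries of the series, 4 of young CD4 naive cells and 4 of young CD8 naive cells, chosen by the cell type and age in their titles. Both groups came from animals of 2 months on a C57/Bl6 background, and each library pooled cells sorted by flow cytometry from 5 animals. Also used were 3 libraries of old CD4 naive and 3 of old CD8 naive cells (22 to 24 months), and 5 of young CD4 memory and 3 of young CD8 memory cells, all from spleen and from the same background. The labels give no gate for the sort. RNA was read from 3' ends, and levels are given as CPM, the counts divided by the library total and scaled to a fixed sum, which were not divided by gene length, so they compare a gene between libraries and not one gene with another.

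CD4 and CD8 T cells arise in the thymus from precursors that carry both coreceptors. CD4 binds MHC class II and CD8 binds MHC class I, and the cells that leave the thymus are naive helper or naive cytotoxic cells. In mice the zinc finger factor ThPOK, encoded by Zbtb7b, is required for the helper choice, and RUNX3 silences Cd4 and sustains Cd8a in the cytotoxic lineage. Each of these factors restrains the other.

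The promoters of this opposed pair of regulators, and of Cd8a, are shown because the comparison turns on these genes. They run from 250 bases before to 50 bases after each transcription start in the RefSeq annotation of GRCm38.p6, with capitals marking TGTGGT, the core letters bound by RUNX factors, or its reverse complement ACCACA. Zbtb7b (chromosome 3) and Runx3 (chromosome 4) each have 2 promoters in that table.
Zbtb7b, chr3:89393329-89393628, minus strand: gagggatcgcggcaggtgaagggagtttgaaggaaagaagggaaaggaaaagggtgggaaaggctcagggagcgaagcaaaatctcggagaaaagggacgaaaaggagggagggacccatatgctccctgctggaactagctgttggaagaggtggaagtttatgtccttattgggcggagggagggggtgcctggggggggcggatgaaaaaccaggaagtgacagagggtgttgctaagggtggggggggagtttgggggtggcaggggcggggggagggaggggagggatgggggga
Zbtb7b, chr3:89387622-89387921, minus strand: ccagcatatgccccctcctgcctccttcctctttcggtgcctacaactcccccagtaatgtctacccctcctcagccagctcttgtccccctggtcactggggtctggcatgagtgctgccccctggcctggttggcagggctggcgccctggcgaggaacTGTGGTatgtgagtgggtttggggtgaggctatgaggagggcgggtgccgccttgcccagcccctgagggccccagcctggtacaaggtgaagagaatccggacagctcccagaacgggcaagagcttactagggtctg
Runx3, chr4:135120395-135120694, plus strand: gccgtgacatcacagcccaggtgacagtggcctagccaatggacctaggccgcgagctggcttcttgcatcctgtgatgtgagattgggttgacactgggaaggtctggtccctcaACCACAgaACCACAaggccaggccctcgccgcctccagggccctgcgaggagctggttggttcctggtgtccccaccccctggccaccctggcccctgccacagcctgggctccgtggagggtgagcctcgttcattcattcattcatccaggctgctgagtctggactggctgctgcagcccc
Runx3, chr4:135152295-135152594, plus strand: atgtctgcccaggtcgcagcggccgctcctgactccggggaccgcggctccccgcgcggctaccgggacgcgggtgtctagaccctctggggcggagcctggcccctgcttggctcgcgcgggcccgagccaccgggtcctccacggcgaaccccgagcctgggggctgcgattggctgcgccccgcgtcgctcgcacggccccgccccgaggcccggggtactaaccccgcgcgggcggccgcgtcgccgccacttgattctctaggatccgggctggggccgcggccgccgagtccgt
Cd8a, chr6:71373177-71373476, plus strand: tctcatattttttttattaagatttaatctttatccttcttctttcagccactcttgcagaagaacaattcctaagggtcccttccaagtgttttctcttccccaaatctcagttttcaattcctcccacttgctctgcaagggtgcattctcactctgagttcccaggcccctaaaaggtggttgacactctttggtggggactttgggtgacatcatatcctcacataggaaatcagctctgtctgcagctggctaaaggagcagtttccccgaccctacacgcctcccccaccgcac

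The first Runx3 promoter holds 2 of these cores in tandem, starting 134 and 126 bases upstream of the start, and the second Zbtb7b promoter holds 1, starting 89 bases upstream. The letters are not in the other 3 windows. Of all 32851 promoters in the table, 16.8% hold them on either strand, and the matches are a description of the letters and not of binding. Outside the adipocyte-rich and immunoglobulin classes defined below, they stood in 9.52% of 756 promoters of genes called higher in CD4 naive cells, in 17.7% of 519 promoters of genes called lower and in 12.6% of 7923 promoters of genes not called.

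The sort was checked on the genes that define it, which are not findings. Cd4 (GRCm38 chr6:124864692-124888221) had 281, 274, 275 and 307 CPM in the CD4 naive libraries, against 2.01, 0, 0.434 and 1.45 CPM in the CD8 naive libraries. Cd8a, the alpha chain of the CD8 coreceptor (chr6:71373427-71379173), had 12.3, 6.85, 8.98 and 6.44 CPM in the CD4 naive libraries, against 653, 562, 523 and 693 CPM in the CD8 naive libraries. The beta chain gene Cd8b1 averaged 42.6 ± 8.36 CPM in CD4 naive cells and 1982 ± 217 CPM in CD8 naive cells (SD, n = 4 each). For all of these genes the groups were far apart and every library matched its label. The fitted differences were 7.97, -6.00 and -5.46 on the log2 scale (CD4 naive minus CD8 naive), and that of Cd4 was 9.06 without CD8 naive replicate 1. Ccr7, a chemokine receptor of naive cells, was present in both groups and averaged 374 ± 30.5 CPM in CD4 naive cells and 414 ± 33.6 CPM in CD8 naive cells (SD, n = 4 each). It did not pass the test (adjusted p = 0.75).

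**Figure D1:**
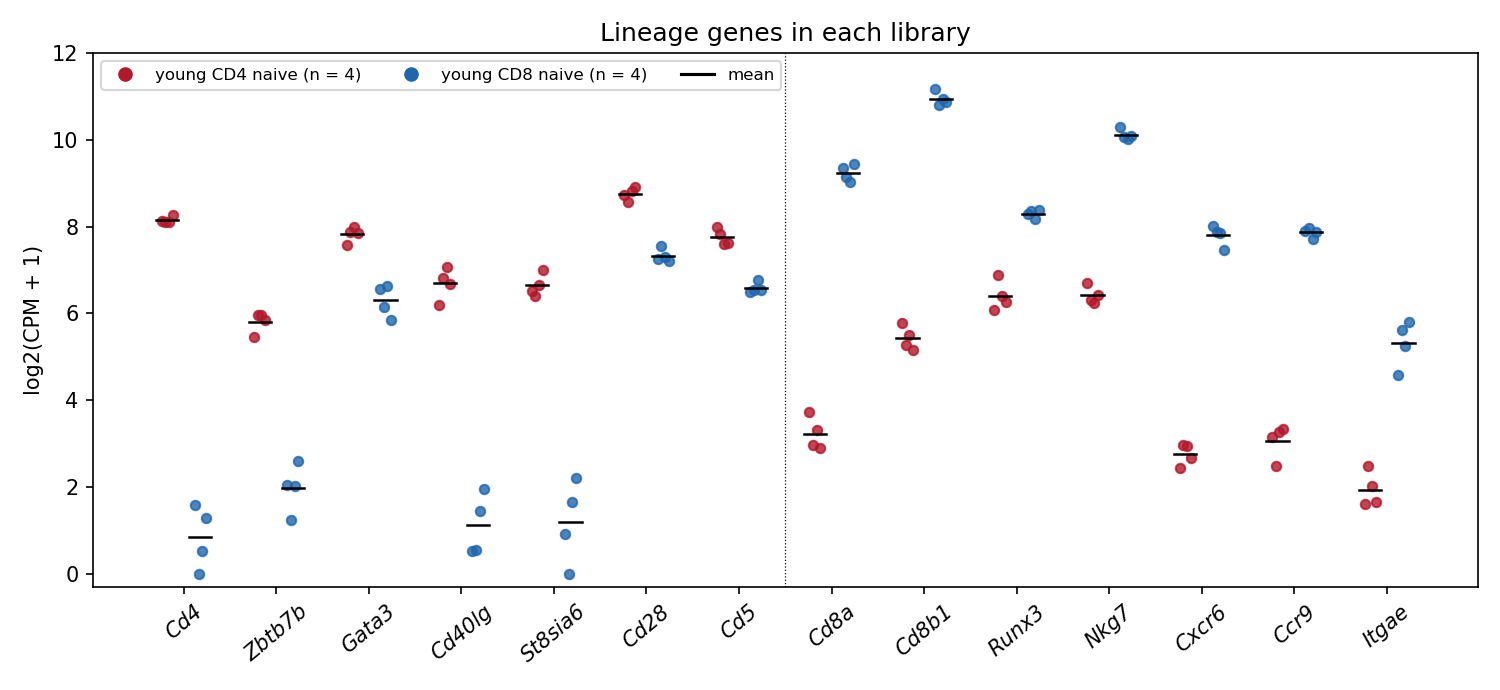
Level of 14 lineage genes in each of the 8 libraries, as log2(CPM + 1), with young CD4 naive libraries in red to the left of young CD8 naive libraries in blue and the mean as a black line. For each gene the 2 groups do not overlap. Genes higher in CD4 naive cells stand left of the dotted line.

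Total counts per library ran from 1750722 to 3563790 in CD4 naive cells and from 1375782 to 4479026 in CD8 naive cells. RNA typical of other cell types stood apart between the groups and is given before the results it touches. Its source was not tested. The 10 listed adipocyte markers summed to 17.2 to 25.3 CPM in the CD4 naive libraries, against 2862 to 3485 CPM in the CD8 naive libraries, and 10 of 10 were called lower in CD4 naive cells, where 7.95% of all genes tested were called lower. Adipoq, the adipocyte hormone adiponectin, had 0.342, 0.571, 0 and 0 CPM in the CD4 naive libraries, against 245, 304, 220.1 and 286 CPM in the CD8 naive libraries, with no overlap of the groups. Cidec and Plin4, which coat lipid droplets, had 0 counts in every CD4 naive library, and Cidec was at least 549-fold lower there than in CD8 naive cells (floor of 3 counts over the group). In the 3 old CD8 naive libraries the same sum was 2878 to 2990 CPM, in young adipocytes 71544 to 92757 CPM, and in the 8 other spleen T cell groups at most 87.4 CPM. Their share of young adipocyte levels ran from 2.31% for Pck1 to 11.7% for Lep. Of 5 tested fibroblast markers 3 were also lower in CD4 naive cells, with log2 values of -5.61 for Dcn, -5.48 for Col3a1 and -3.64 for Col1a2, which were -6.32, -8.29 and -4.52 without CD4 naive replicate 1. The value of -8.29 depends on the prior count, since the other CD4 naive libraries had 0 counts of Col3a1.

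Immunoglobulin genes stood apart the other way. Of 50 tested 45 were higher in CD4 naive cells and 0 lower, where 7.86% of all genes tested were called higher. Their summed level was 2741 to 3170 CPM in the CD4 naive libraries, against 545 to 1136 CPM in the CD8 naive libraries. The kappa segment Igkv4-63 had 182, 161, 148 and 161 CPM in the CD4 naive libraries, against 0.447, 0.909, 0 and 0 CPM in the CD8 naive libraries. It averaged 309.5 CPM in old CD4 naive and 162 CPM in young CD8 memory libraries, and did not pass 1.25 CPM in any young B cell library. In CD8 virtual memory libraries it ran from 8.37 to 16.8 CPM in young and from 8.97 to 139 CPM in old mice. Of 6 tested neutrophil markers 4 were higher in CD4 naive cells (S100a8, S100a9, Ngp and Ltf; summed list 156 to 232 CPM in CD4 naive libraries and 26.0 to 122 CPM in CD8 naive libraries). Without CD8 naive replicate 1 the log2 values of S100a9, Ngp and Ltf were 2.53, 2.97 and 2.50, against 1.81, 1.75 and 1.67 with it. Among macrophage markers Lyz2 was higher and C1qa, C1qb and C1qc were lower, and the B cell gene Cd79b averaged 14.8 CPM in CD4 naive and 51.9 CPM in CD8 naive cells. Of the tested markers of plasma cells 2 of 4 were higher (Jchain and Igkc) and of natural killer cells 1 of 3 (Tyrobp). Of dendritic cell markers 0 of 2 and of thymocyte markers 0 of 3 were called. Of 6 listed platelet markers only Itgb3 had enough counts to be tested, and it was higher. With DESeq2, 1 of the 6 platelet markers was higher and 1 lower. The log2 value of Igkc was 1.67, and 2.27 without CD8 naive replicate 1. The calls of S100a8, S100a9, Ngp, Ltf, Lyz2, Igkc and all 3 C1q genes were lost when all spleen T cell groups shared 1 fit, and those of C1qa, Ngp, Ltf, Igkc and Tyrobp also under other alternatives. The part of this RNA in the results below was not tested. Counts are given with and without genes at 5 times or more the CD8 naive level in young adipocytes (called adipocyte-rich here) and immunoglobulin genes. Since that class is a ratio to the CD8 naive level, 29 genes higher in CD4 naive cells fall in it, Zbtb7b, Ly6c1 and Maf among them, and all counts without the class leave them out.

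**Figure D2:**
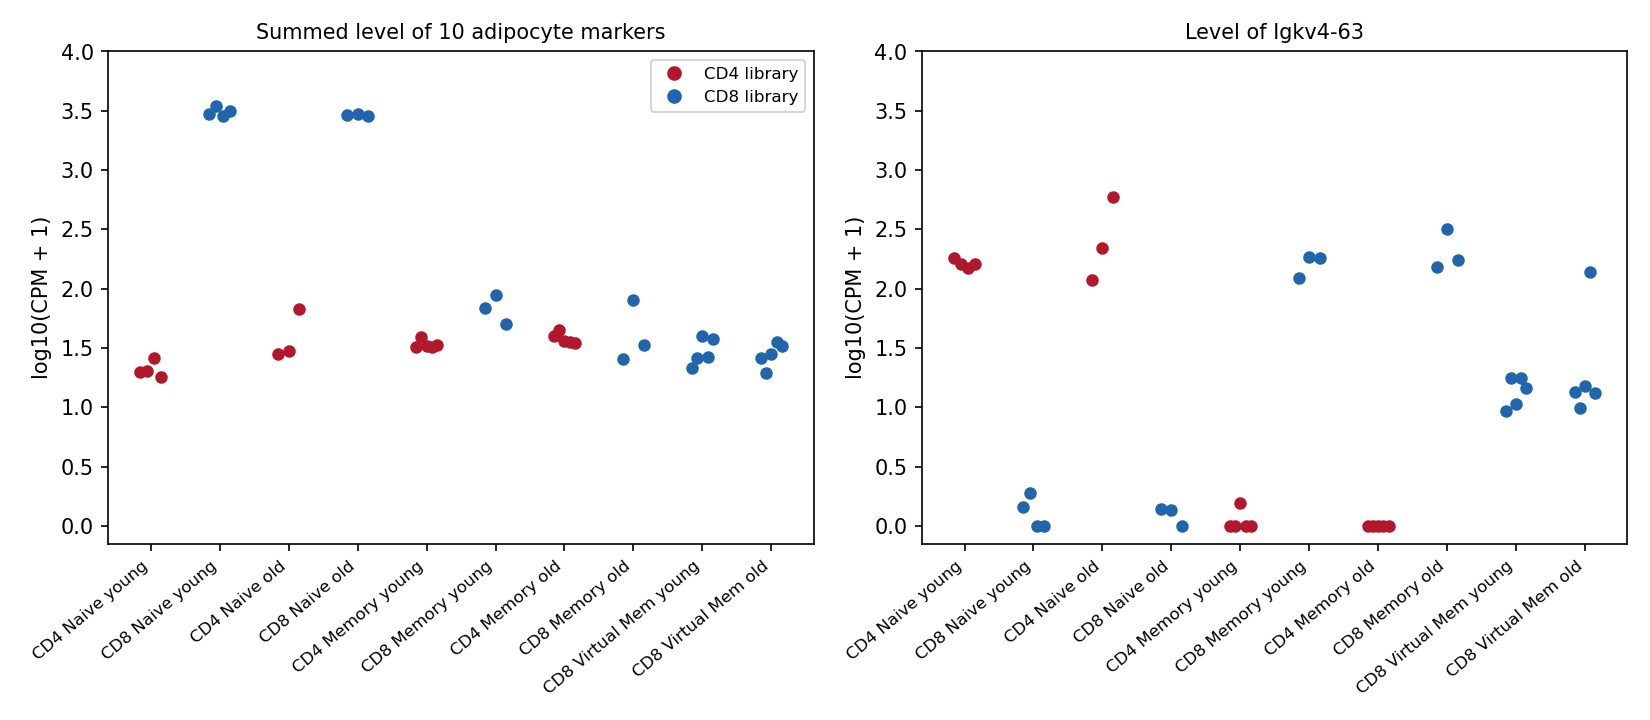
Summed level of 10 adipocyte markers (left) and level of Igkv4-63 (right), as log10(CPM + 1), with 1 point per library in the 10 spleen T cell groups, CD4 in red and CD8 in blue. Adipocyte markers sum to 2862 to 3485 CPM in young and 2878 to 2990 CPM in old CD8 naive libraries, and Igkv4-63 is at 118 CPM or more in CD4 naive and CD8 memory libraries of both ages and reaches 139 CPM in an old CD8 virtual memory library.

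Across all genes, 1736 of 10975 tested differed between CD4 naive and CD8 naive cells (15.8%; adjusted p under 0.05, edgeR quasi-likelihood fit, Benjamini-Hochberg over all genes tested), with 863 higher in CD4 naive cells (7.86%) and 873 lower (7.95%). Changes of at least 2-fold were found in 485 genes that were higher and 492 that were lower. Of the 145 genes lower by 8-fold or more, 113 were adipocyte-rich, and of the 56 higher by 8-fold or more, 34 were immunoglobulin genes. Without both classes 792 genes were higher and 639 lower. All 12 lowest genes of the naming rule were adipocyte-rich (Cidec, Fabp4, Adipoq, Car3, Plin4, Cav1, Lep, Cfd, Dpt, Thrsp, Prelp and Cyp2e1), so the 12 lowest outside that class were added after the data had been seen. Libraries of the groups did not overlap for 2236 of all genes tested (20.4%). Among the called they did not overlap for 685 of the 863 and 843 of the 873, against 7.63% and 12.7% of all genes tested with no overlap in each direction. Animals were pooled and the labels do not say whether libraries came from separate days, so p-values measure the spread between these pools.

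**Figure D3:**
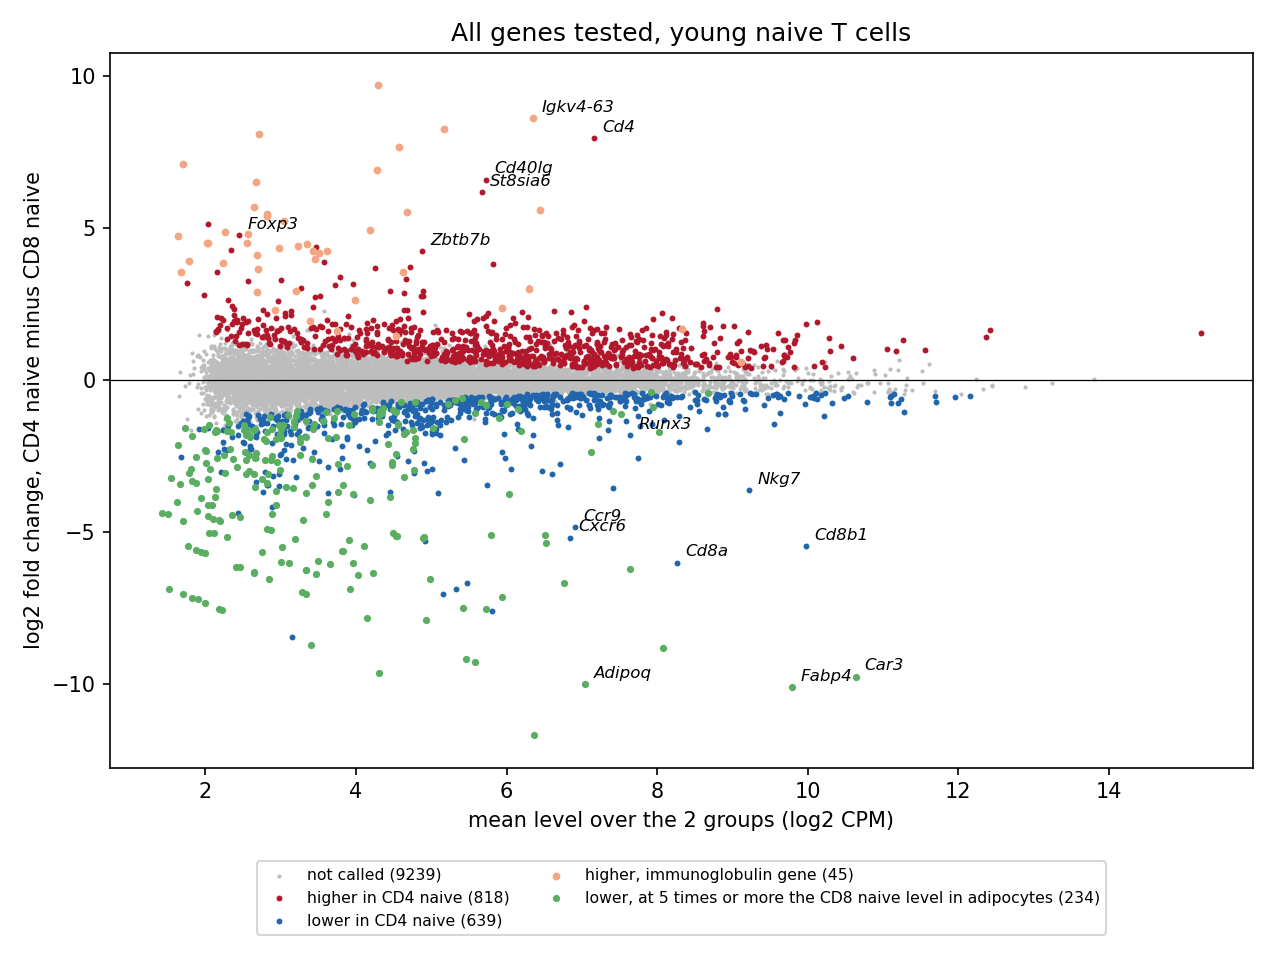
Log2 fold change (CD4 naive minus CD8 naive) against mean level (log2 CPM) for the 10975 genes tested, with called genes in colour. The large negative values are mostly adipocyte-rich genes (green) and many of the large positive ones immunoglobulin genes (orange), with Cd4, Cd40lg and St8sia6 above and Cd8a, Cd8b1 and Nkg7 below as lineage genes.

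Helper genes were mostly higher in CD4 naive cells. The gene lists, above and below, were chosen with earlier results of these data known. Their shares beside those of all genes tested describe the lists and are no test of them. Of 16 listed helper genes, all tested, 12 were higher (75%, against 7.86% of all genes tested), the sort gene Cd4 among them, and 0 lower, with a median log2 fold change of 1.38 against -0.01 for all genes tested. Zbtb7b (chr3:89377644-89394776) had 42.8, 61.7, 61.7 and 56.9 CPM in the CD4 naive libraries, against 3.13, 1.36, 3.04 and 5.09 CPM in the CD8 naive libraries. No CD8 naive library reached the lowest CD4 naive library (log2 fold change 4.25 ± 0.30, adjusted p = 6.7e-08). Cd40lg encodes CD40 ligand, through which helper cells license B cells and dendritic cells, and had 72.6, 113, 132 and 102 CPM in the CD4 naive libraries, against 0.447, 0.455, 1.74 and 2.91 CPM in the CD8 naive libraries (log2 fold change 6.59 ± 0.38, adjusted p = 5.9e-09). It was close to 0 in all CD8 naive libraries. Gata3, a factor of thymic helper commitment and of type 2 helper cells, had 191, 234, 254 and 229 CPM in the CD4 naive libraries, against 93.3, 70.0, 99.0 and 56.7 CPM in the CD8 naive libraries (log2 fold change 1.56 ± 0.19, adjusted p = 2.6e-05). Its groups were separate but closer than those of Zbtb7b. Tnfrsf4, the costimulatory receptor OX40, averaged 49.3 ± 2.36 CPM in CD4 naive cells and 3.52 ± 2.40 CPM in CD8 naive cells (SD, n = 4 each, log2 fold change 3.71 ± 0.34, adjusted p = 1.5e-06). The other called members were Cd28, Cd5, Trat1, Il6ra, Il4ra, Tox and Ctla4 beside Cd4. Icos, Tnfsf8, Il6st and Il21r did not pass the test, and Icos averaged 65.3 ± 13.1 CPM in CD4 naive cells and 59.3 ± 13.8 CPM in CD8 naive cells (SD, n = 4 each).

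Cytotoxic genes were mostly lower in CD4 naive cells. Of 24 listed genes 19 were tested, and 14 were lower (73.7%, against 7.95% of all genes tested) and 3 higher (15.8%, against 7.86%), with a median of -1.80. The 14 include Cd8a and Cd8b1, on which the sort rests. Runx3 (chr4:135120652-135177990), whose promoters are printed above, had 66.8, 118, 83.3 and 75.7 CPM in the CD4 naive libraries, against 312, 325, 287 and 334 CPM in the CD8 naive libraries (log2 fold change -1.80 ± 0.17, adjusted p = 1.9e-06). Runx3 was still present in CD4 naive libraries, at levels below every CD8 naive library. Nkg7, a membrane protein of cytotoxic granules, had 103, 78.8, 75.2 and 84.8 CPM in the CD4 naive libraries, against 1255, 1071, 1029 and 1088 CPM in the CD8 naive libraries (log2 fold change -3.63 ± 0.15, adjusted p = 8.0e-11). Ly6c2, which encodes a Ly-6C surface antigen, had 25.3, 23.4, 29.2 and 24.2 CPM in the CD4 naive libraries, against 288, 289.7, 476 and 211 CPM in the CD8 naive libraries (log2 fold change -3.56 ± 0.24, adjusted p = 4.6e-08). Its near copy Ly6c1 went the other way, with 90.7, 73.7, 134 and 124 CPM in the CD4 naive libraries, against 8.26, 8.64, 8.68 and 4.36 CPM in the CD8 naive libraries (log2 fold change 3.82 ± 0.25, adjusted p = 3.4e-08). How reads shared by this pair were counted is not given. Also lower were the protease gene Ctsw, the receptor gene Klrd1, the cystatin gene Cst7, the perforin gene Prf1 (28.0 CPM in CD4 naive and 77.4 CPM in CD8 naive cells), Eomes, Crtam, Il2rb, Xcl1 and Itgae beside the coreceptor genes. Against the list, 3 members were higher in CD4 naive cells, named because they are few. Fasl, the ligand of the death receptor Fas, averaged 19.8 ± 5.44 CPM in CD4 naive cells and 3.09 ± 0.702 CPM in CD8 naive cells (SD, n = 4 each, log2 fold change 2.78 ± 0.34, adjusted p = 3.1e-05). The chemokine gene Ccl5 averaged 656 ± 72.0 CPM in CD4 naive cells and 477 ± 21.9 CPM in CD8 naive cells. The granzyme gene Gzmk averaged 21.4 ± 3.91 CPM in CD4 naive cells and 11.1 ± 4.08 CPM in CD8 naive cells (SD, n = 4 each).

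Among transcription factors of lineage choice and quiescence, 13 of 32 tested were higher in CD4 naive cells (40.6%) and 2 lower (6.25%, Runx3 and Eomes), beside 7.86% and 7.95% of all genes tested, with a median of 0.44. Ets1, a factor of T cell development, had 3057, 3849.8, 3383 and 3586 CPM in the CD4 naive libraries, against 1501, 1260.5, 1458 and 1642 CPM in the CD8 naive libraries (log2 fold change 1.32 ± 0.14, adjusted p = 4.6e-06), with no overlap of the groups. Runx1, the paralog of Runx3, was higher where Runx3 was lower, at 82.7 ± 18.6 CPM in CD4 naive cells and 33.9 ± 9.95 CPM in CD8 naive cells (SD, n = 4 each, log2 fold change 1.37 ± 0.23, adjusted p = 6.0e-04). Maf, which promotes cytokine genes of helper cells, averaged 33.7 CPM in CD4 naive and 11.1 CPM in CD8 naive cells. Satb1, a chromatin organiser of T cells, averaged 841 ± 175 CPM in CD4 naive cells and 533 ± 129 CPM in CD8 naive cells (SD, n = 4 each), and its adjusted p of 0.0098 became 0.32 when all spleen T cell groups shared 1 fit. Myb, Prdm1, Tox, Ikzf2, Lef1, Bach2 and Foxp1 were the other called members beside Zbtb7b and Gata3. Tcf7, a partner of Lef1 in naive cells, averaged 1032 ± 111 CPM in CD4 naive cells and 829 ± 106 CPM in CD8 naive cells (SD, n = 4 each) and did not pass the test (adjusted p = 0.077), nor did Id2, Id3, Bcl11b, Ikzf1 or Klf2.

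Of 16 genes typical of naive cells 6 were higher in CD4 naive cells (37.5%, against 7.86% of all genes tested) and 1, Dapl1, was lower. Dapl1 had 473, 445, 502 and 551 CPM in the CD4 naive libraries, against 1139.5, 1141, 1272 and 828 CPM in the CD8 naive libraries (log2 fold change -1.09 ± 0.15, adjusted p = 1.2e-04), with every CD4 naive library below every CD8 naive library. The higher members were Igfbp4, Satb1, Actn1, Lef1, Bach2 and Foxp1. Igfbp4, which binds insulin-like growth factors, was higher at 332 CPM in CD4 naive and 152 CPM in CD8 naive cells (log2 fold change 1.21 ± 0.17, adjusted p = 1.1e-04). In the fit of all spleen T cell groups the adjusted p of Dapl1 was 0.057 and that of Igfbp4 0.37, and Actn1 lost its call there, with DESeq2, without CD4 naive replicate 2 and without CD8 naive replicate 3 (adjusted p up to 0.14).

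Of 34 tested genes of T cell receptor signalling 4 were higher in CD4 naive cells (11.8%) and 1 lower (2.94%), beside 7.86% and 7.95% of all genes tested, with a median of 0.07. Cd28, the costimulatory receptor, had 420.4, 376, 453 and 484 CPM in the CD4 naive libraries, against 151, 186, 157 and 147 CPM in the CD8 naive libraries (log2 fold change 1.51 ± 0.13, adjusted p = 8.9e-07). Cd5, an inhibitory surface protein whose level follows the strength of self-recognition in the thymus, had 252, 227, 194 and 196 CPM in the CD4 naive libraries, against 89.3, 92.8, 109 and 92.3 CPM in the CD8 naive libraries (log2 fold change 1.25 ± 0.14, adjusted p = 1.5e-05). Cd28 and Cd5 showed no overlap between groups. Cd6, a relative of Cd5, and Dgka, a diacylglycerol kinase, were the other higher members, and the adaptor gene Sla2 the lower one, at 27.9 CPM in CD4 naive and 56.9 CPM in CD8 naive cells. Cd3e, Lck, Zap70 and Lat did not pass the test, and Lck averaged 763 ± 142 CPM in CD4 naive cells and 941 ± 126 CPM in CD8 naive cells (SD, n = 4 each). The alpha constant segment Trac, at 4826, 11771, 11341 and 4896 CPM in the CD4 naive libraries, against 4228, 1483, 3063 and 2309 CPM in the CD8 naive libraries, was higher in CD4 naive cells (log2 fold change 1.64 ± 0.34, adjusted p = 0.0031). It was chosen after its values had been seen, and 2 of its CD4 naive libraries stood far above the other 2. Of 130 alpha V segments 1 had enough counts to be tested (Trav14d-3-dv8, higher, a call lost in the shared fit), and of 13 beta V segments tested Trbv2 and Trbv19 were higher and Trbv12-1 lower. The log2 value of Trbv2 was 2.06, and 2.66 without CD8 naive replicate 3. Trbv12-1 had an adjusted p of 0.048 and lost its call in all 13 alternative fits (adjusted p = 0.05002 to 0.18).

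Of 19 tested costimulatory and checkpoint receptors 10 were higher in CD4 naive cells (52.6%, against 7.86% of all genes tested) and 3 lower (15.8%, against 7.95%), with a median of 1.03. Besides Cd40lg, Cd28 and Tnfrsf4, Izumo1r, the folate receptor 4 of helper and regulatory cells, had 124, 106, 106 and 121 CPM in the CD4 naive libraries, against 31.9, 29.1, 46.9 and 33.4 CPM in the CD8 naive libraries (log2 fold change 1.76 ± 0.18, adjusted p = 4.1e-06). All CD4 naive libraries stood above 100 CPM and no CD8 naive library above 50 CPM. Pdcd1 (PD-1), Cd200, Tigit, Tnfrsf9, Ctla4 and Slamf1 were higher too. Cd160 averaged 8.55 ± 2.68 CPM in CD4 naive cells and 46.0 ± 11.4 CPM in CD8 naive cells (SD, n = 4 each) and was lower, as were Cd96 and Slamf6.

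Cytokine receptors and their JAK-STAT pathway showed 9 of 36 tested members higher (25%) and 3 lower (8.33%), beside 7.86% and 7.95% of all genes tested, with a median of 0.13. Il2ra, the high affinity chain of the interleukin-2 receptor, had 16.1, 18.8, 27.2 and 22.5 CPM in the CD4 naive libraries, against 1.34, 1.36, 0.868 and 0 CPM in the CD8 naive libraries (log2 fold change 4.36 ± 0.44, adjusted p = 3.5e-06), with no overlap. Il2rb, the chain that also serves interleukin-15, went the other way at 50.2 ± 10.0 CPM in CD4 naive cells and 101 ± 9.63 CPM in CD8 naive cells (SD, n = 4 each, log2 fold change -0.94 ± 0.18, adjusted p = 0.0014). Tgfbr3, a coreceptor for TGF-beta, had 67.8, 106, 83.9 and 100.4 CPM in the CD4 naive libraries, against 22.1, 30.9, 21.3 and 24.0 CPM in the CD8 naive libraries (log2 fold change 1.94 ± 0.19, adjusted p = 3.5e-06). Ifngr2, the signalling chain of the interferon-gamma receptor, averaged 129 CPM in CD4 naive and 44.0 CPM in CD8 naive cells, and Stat5a 125 CPM in CD4 naive and 55.4 CPM in CD8 naive cells. Il6ra, Il4ra, Socs2, Cish and Bcl2 completed the higher members, and Stat4, a mediator of interleukin-12 signals, and Il10rb the lower ones. Il7r, the survival receptor of naive cells, averaged 685 ± 94.8 CPM in CD4 naive cells and 773 ± 49.1 CPM in CD8 naive cells (SD, n = 4 each) and did not pass the test.

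Among chemokine receptors and adhesion molecules 5 of 24 tested were higher and 5 lower (20.8% each, beside 7.86% and 7.95% of all genes tested), with the largest changes among the lower ones. Cxcr6, the receptor of CXCL16, had 4.45, 6.85, 6.73 and 5.37 CPM in the CD4 naive libraries, against 256, 232, 229 and 177 CPM in the CD8 naive libraries (log2 fold change -5.18 ± 0.22, adjusted p = 9.5e-11). Ccr9, a gut-homing receptor that binds CCL25, had 7.87, 4.57, 8.70 and 9.13 CPM in the CD4 naive libraries, against 239, 249, 210.1 and 235 CPM in the CD8 naive libraries (log2 fold change -4.83 ± 0.19, adjusted p = 4.4e-11). Both stood below 10 CPM in every CD4 naive library. Itgae, the alpha chain of the CD103 integrin that binds E-cadherin, had 2.05, 4.57, 3.09 and 2.15 CPM in the CD4 naive libraries, against 23.0, 48.2, 37.3 and 55.2 CPM in the CD8 naive libraries (log2 fold change -3.69 ± 0.35, adjusted p = 2.0e-06). Itgb7, whose product pairs with it, averaged 217 ± 35.8 CPM in CD4 naive cells and 346 ± 29.9 CPM in CD8 naive cells (SD, n = 4 each). Cd226, an activating receptor, had 65.0, 47.4, 53.0 and 57.4 CPM in the CD4 naive libraries, against 136, 175, 173 and 196 CPM in the CD8 naive libraries (log2 fold change -1.53 ± 0.15, adjusted p = 3.3e-06). Gpr183, the receptor of oxysterols that guides cells in the spleen, was higher at 201 ± 77.5 CPM in CD4 naive cells and 93.6 ± 14.1 CPM in CD8 naive cells (SD, n = 4 each), and so were Cd44, Itga6, Ccr2 and Pecam1.

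A further set of genes differed between naive CD4 and naive CD8 cells without standing in a list of helper or cytotoxic function. For St8sia6, Pdlim4, Ecm1, Xylt1, Dusp5 and Jchain the naive difference was not that of memory cells, by the interaction test given below. St8sia6, which adds sialic acid to sialylated glycans, had 90.7, 84.0, 100.2 and 127 CPM in the CD4 naive libraries, against 0.893, 0, 2.17 and 3.63 CPM in the CD8 naive libraries (log2 fold change 6.19 ± 0.38, adjusted p = 1.2e-08). It came next after Cd4 and Cd40lg among the 12 highest genes of a ranking that took genes at a mean of 20 CPM or more in the higher group and left out immunoglobulin and T cell receptor segments. With St3gal2, St8sia1, St8sia4 and B4galt1 it made 5 of 21 listed glycosyltransferases and related enzymes higher (23.8%, against 7.86% of all genes tested). The 1 lower was Chst15, a sulfotransferase. Pdlim4, a LIM domain protein, averaged 35.5 CPM in CD4 naive and 2.75 CPM in CD8 naive cells. The matrix protein gene Ecm1 averaged 27.8 CPM in CD4 naive and 3.31 CPM in CD8 naive cells. The xylosyltransferase gene Xylt1 averaged 25.1 CPM in CD4 naive and 2.52 CPM in CD8 naive cells, with a log2 value of 3.39, and 4.01 without CD8 naive replicate 3. Dusp5, a phosphatase of ERK kinases, had 9.24, 16.6, 119.5 and 37.6 CPM in the CD4 naive libraries, against 4.91, 2.73, 5.21 and 7.27 CPM in the CD8 naive libraries. Its log2 value of 3.33 was 2.13 without CD4 naive replicate 3. Jchain, which joins secreted antibodies, was the last of the 12 highest ranked genes (2.99) and moved with the immunoglobulin genes given above, and lost its call in the shared fit (adjusted p = 0.10).

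Of the 12 lowest genes outside the adipocyte-rich class, Adgrg5, an adhesion G protein-coupled receptor, had 0.685, 0.571, 0.561 and 0.537 CPM in the CD4 naive libraries, against 62.3, 85.0, 75.5 and 95.2 CPM in the CD8 naive libraries (log2 fold change -6.87 ± 0.30, adjusted p = 1.7e-10). Slc6a19, a transporter of neutral amino acids, averaged 0.577 ± 0.939 CPM in CD4 naive cells and 88.4 ± 5.74 CPM in CD8 naive cells (SD, n = 4 each). Its log2 value was -6.68, and -8.71 without CD4 naive replicate 3. No CD4 naive library passed 1.96 CPM for either gene. Kcna2, a voltage-gated potassium channel, averaged 2.05 CPM in CD4 naive and 29.3 CPM in CD8 naive cells (-3.78, and -4.42 without CD4 naive replicate 4). The lipocalin gene Lcn4 averaged 4.29 CPM in CD4 naive and 63.5 CPM in CD8 naive cells. Haao, an enzyme of tryptophan breakdown, averaged 1.53 CPM in CD4 naive and 23.2 CPM in CD8 naive cells. Trim30c had 0.342, 1.14, 0.561 and 0 CPM in the CD4 naive libraries, against 243, 12.3, 17.4 and 10.2 CPM in the CD8 naive libraries. Here 1 CD8 naive library stood more than 10 times above the other 3. Its log2 value of -7.04 was -4.51 without that library. Cd8a, Cd8b1, Cxcr6, Ccr9, Itgae and Nkg7 made up the rest.

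Of 33 tested interferon-stimulated genes 4 were higher (12.1%) and 3 lower (9.09%), near the 7.86% and 7.95% of all genes tested, with a median of -0.09. Ly6a, the Sca-1 antigen, had 116, 107, 107 and 107 CPM in the CD4 naive libraries, against 29.7, 27.7, 36.5 and 13.1 CPM in the CD8 naive libraries (log2 fold change 2.05 ± 0.23, adjusted p = 1.0e-05). Gbp2, a guanylate-binding protein, averaged 40.5 CPM in CD4 naive and 82.8 CPM in CD8 naive cells and was lower (-0.97). Samhd1, Ifih1 and Ifit1 were the other higher members and Gbp3 and Ifi27l2a the other lower ones, and without a filter on low counts Samhd1 lost its call (adjusted p = 0.07). Of 16 genes of MHC class I presentation 0 were higher and 3 lower (18.8%, against 7.95% of all genes tested). The class I gene H2-Q7 averaged 238 ± 12.4 CPM in CD4 naive cells and 457 ± 16.4 CPM in CD8 naive cells. The proteasome activator gene Psme1 averaged 263 ± 14.8 CPM in CD4 naive cells and 477 ± 40.8 CPM in CD8 naive cells. The immunoproteasome subunit gene Psmb8 averaged 555 ± 31.8 CPM in CD4 naive cells and 871 ± 82.8 CPM in CD8 naive cells (SD, n = 4 each). Immediate-early and heat-shock genes had 5 of 20 tested higher (25%) and 2 lower (10%), beside 7.86% and 7.95% of all genes tested. Nr4a1, which T cell receptor signals induce, had 29.1, 43.4, 66.2 and 69.3 CPM in the CD4 naive libraries, against 6.47, 11.4, 3.91 and 7.27 CPM in the CD8 naive libraries (log2 fold change 2.93 ± 0.33, adjusted p = 1.4e-05). The genes Jund, Nr4a3, Junb and Btg2 were higher, while Dusp2 and Ier2 were lower, with Ier2 at 113 CPM in CD4 naive and 212 CPM in CD8 naive cells. Junb, at 619, 766, 3541 and 2019.7 CPM in the CD4 naive libraries, against 777, 294, 238 and 645 CPM in the CD8 naive libraries, overlapped between groups. The summed list was 3658 to 8922 CPM in CD4 naive libraries against 2972 to 4668 CPM in CD8 naive libraries, with CD4 naive replicate 3 the highest. The calls of Jund, Nr4a3 and Ier2 were lost when all spleen T cell groups shared 1 fit, at adjusted p = 0.18, 0.15 and 0.28. Of 20 proliferation genes tested Mki67 and Rrm2 were higher (10%, near the 7.86% of all genes) and 0 lower, with Mki67 at 21.0 CPM in CD4 naive and 8.73 CPM in CD8 naive cells, and an adjusted p of 0.12 in the shared fit, where that of Rrm2 was 0.33. Rrm2 also lost its call without CD4 naive replicate 3 or without CD8 naive replicate 1 or 2 (adjusted p = 0.053 to 0.057).

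**Figure D4:**
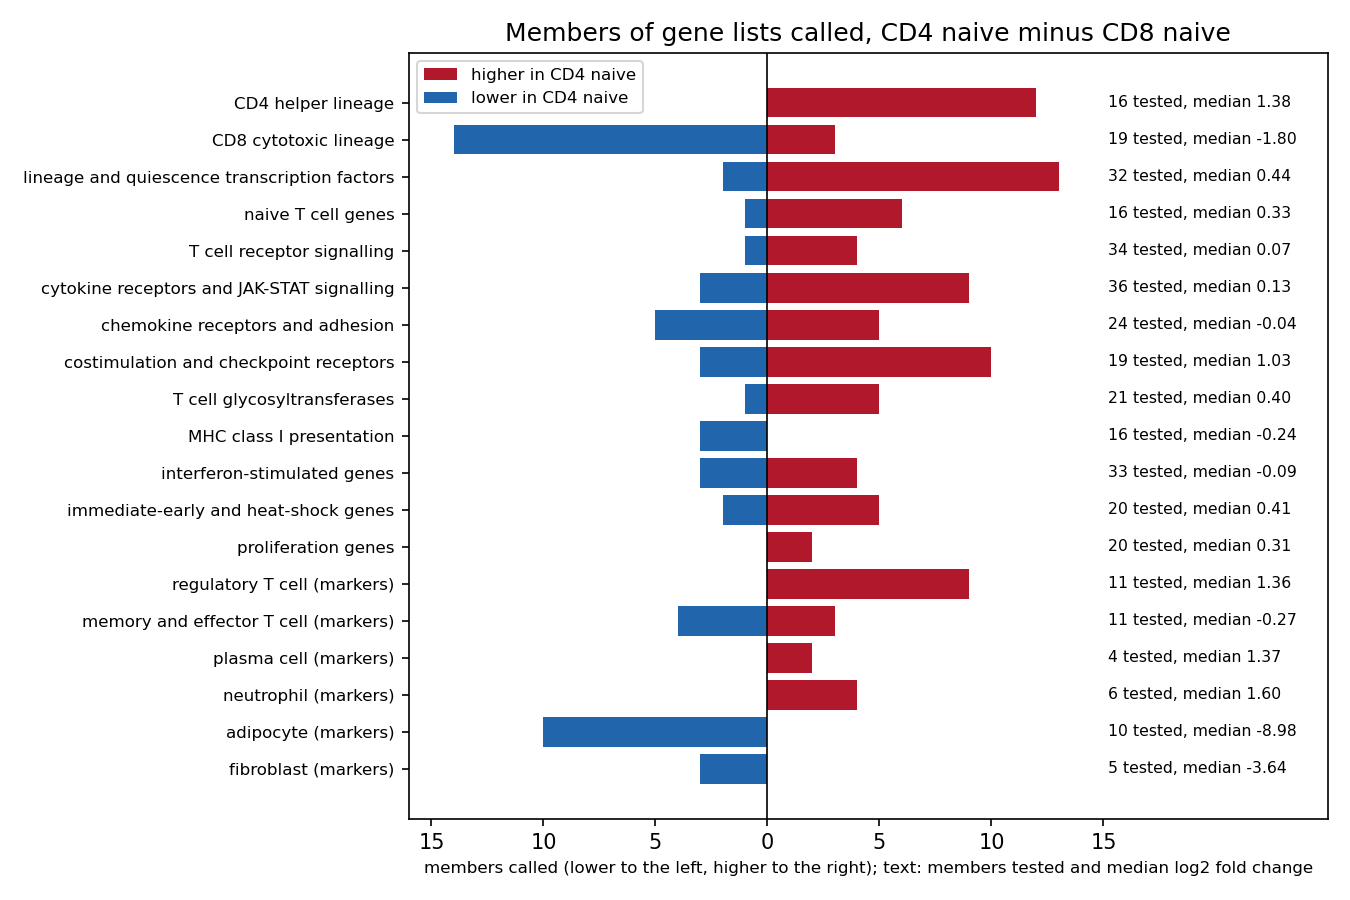
Number of members of 13 pathway lists and 6 marker lists that were higher (right, red) or lower (left, blue) in CD4 naive cells, with the members tested and the median log2 fold change beside each. Helper genes and regulatory T cell markers lie to the right, cytotoxic genes and adipocyte markers to the left. The adipocyte median is printed as -8.98, and is -7.97 with the 2 genes at 0 counts in CD4 naive cells set at their bound.

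Markers of regulatory T cells moved with the helper genes. Of 11 tested 9 were higher in CD4 naive cells (81.8%, against 7.86% of all genes tested) and 0 lower (Il2ra, Izumo1r, Foxp3, Ikzf2, Capg, Ikzf4, Gpr83, Tnfrsf9 and Ctla4), with a summed level of 339 to 402 CPM in CD4 naive libraries against 158 to 175 CPM in CD8 naive libraries. Foxp3, the factor that defines these cells, had 9.24, 8.00, 13.2 and 12.3 CPM in the CD4 naive libraries, against 0.893, 0, 0 and 0 CPM in the CD8 naive libraries (log2 fold change 4.77 ± 0.62, adjusted p = 5.3e-05, and a log2 value of 7.66 without CD8 naive replicate 1). The value of 7.66 depends on the prior count, since the other CD8 naive libraries had 0 counts. In bulk RNA, fewer cells of a type and less RNA per cell cannot be told apart. Il2ra, Izumo1r, Ctla4 and Tnfrsf9 stand in this list and in those above, and the part of regulatory cells in their values was not tested. Ikzf2 lost its call in the shared fit. Of 11 tested memory and effector markers 3 were higher (27.3%, Maf, Cd44 and Ccl5) and 4 lower (36.4%, Ahnak, Anxa2, Lgals1 and Il2rb). Of all genes tested 7.86% were higher and 7.95% lower. Ahnak and Lgals1 lost their calls in the shared fit.

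The same contrast was set beside libraries that the young naive comparison does not use. In old mice 947 of 11899 genes tested differed between CD4 naive and CD8 naive cells (7.96%), with 535 higher (4.5%) and 412 lower (3.46%). The count was 342 without old CD8 naive replicate 1 and 1809 without old CD4 naive replicate 1. Immunoglobulin genes summed to 5024 to 154529 CPM in the old CD4 naive libraries, against 1416 to 2813 CPM in the old CD8 naive libraries. Among genes tested at both ages, 275 of 847 called higher in young cells (32.5%) were called higher in old cells, and 284 of 847 called lower (33.5%) were called lower, while 2 and 1 were called the opposite way. Those shared calls are 65.9% and 79.1% of the old calls. The old CD8 naive libraries carry the same adipocyte markers, and without adipocyte-rich and immunoglobulin genes the shared calls were 226 of 778 (29.0%) and 155 of 622 (24.9%). Zbtb7b averaged 34.6 CPM in old CD4 naive and 2.95 CPM in old CD8 naive cells, and Runx3 149 CPM in old CD4 naive and 382 CPM in old CD8 naive cells.

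A test of the difference between ages called 92 of 13033 genes (0.706%), 23 above 0 (0.176%) and 69 below 0 (0.529%), so most young calls that were not called in old cells were not shown to differ. Cd28 was among the called: old CD4 naive cells had 444 CPM and old CD8 naive cells 453 CPM, so the young difference of 1.51 stood against 0.04 in old cells (interaction 1.50 ± 0.25, adjusted p = 0.007). Tnfrsf4 had 499 CPM in old CD4 naive and 5.29 CPM in old CD8 naive cells, a wider gap than in young cells (interaction -2.87 ± 0.46, adjusted p = 0.0047). For Itgae the old groups averaged 25.1 CPM in CD4 naive and 21.6 CPM in CD8 naive cells, a log2 difference of 0.21 against -3.69 in young cells (interaction -3.87 ± 0.78, adjusted p = 0.025). Cxcr6 and Ccr9 differed less between lineages in old cells, with log2 values of -2.75 and -3.24 and adjusted p = 0.012 and 0.046 for the interaction. Fasl lay the other way in old cells, where CD4 naive averaged 49.1 CPM and CD8 naive 177 CPM (interaction 4.64 ± 0.42, adjusted p = 2.7e-05). The interaction with age called 36 to 290 genes when 1 library is left out, 36 without old CD8 naive replicate 1 and 290 without old CD4 naive replicate 1.

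In young memory cells 1752 of 11080 genes tested differed between CD4 and CD8 (15.8%), with 644 higher (5.81%) and 1108 lower (10%), and the count was 1117 without CD8 memory replicate 3. Of the genes called higher in naive cells and tested in memory cells, 86 of 836 (10.3%) were called higher in memory cells and 115 lower. Of those called lower, 98 of 685 (14.3%) were called lower and 81 higher. Without adipocyte-rich and immunoglobulin genes these counts were 83 of 772 with 72 the opposite way, and 55 of 583 with 78 the opposite way. The lineage difference itself differed between naive and memory cells in 2218 of 12441 genes (17.8%), with 1237 values above 0 (9.94%) and 981 below 0 (7.89%). The rank rule picked Hbq1b, Ermap, Gfi1b, Rhd and Slc38a5, genes of red cell precursors that were high in young CD8 memory libraries (Ermap 194 CPM), and Adipoq, Cav1, Plin4, Dpt and Sod3 from the adipocyte-rich class. The calls of Cav1 and Dpt were lost without CD4 memory replicate 1, and that of Plin4 without CD4 memory replicate 3. Lineage genes passed too. Zbtb7b averaged 49.1 CPM in CD4 memory and 27.2 CPM in CD8 memory cells, so its difference of 4.25 in naive cells stood against 0.77 in memory cells (interaction 3.51 ± 0.45, adjusted p = 1.4e-05). Runx3 averaged 149 CPM in CD4 memory and 163 CPM in CD8 memory cells, and its naive difference of -1.80 stood against -0.19 (adjusted p = 2.8e-04 for the interaction). Cxcr6 and Ccr9 had log2 values of 0.95 and 1.33 in memory cells, at 104 and 98.9 CPM in CD4 memory and 52.2 and 37.7 CPM in CD8 memory cells. Neither passed the test there (adjusted p = 0.055 and 0.06). Their interactions of -6.11 and -6.15 did (adjusted p = 2.0e-09 and 9.8e-08). Gata3 had log2 differences of 1.56 in naive and 2.06 in memory cells, with adjusted p = 0.29 for the interaction. Cd4 itself averaged 20.9 CPM and Cd8a 197 CPM in the CD8 memory libraries, against 0.974 and 608 CPM in CD8 naive libraries. Immunoglobulin genes summed to 1613 to 3620 CPM in the young CD4 memory and 12459 to 54468 CPM in the young CD8 memory libraries, and the part of other cells in the memory comparison was not tested.

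**Figure D5:**
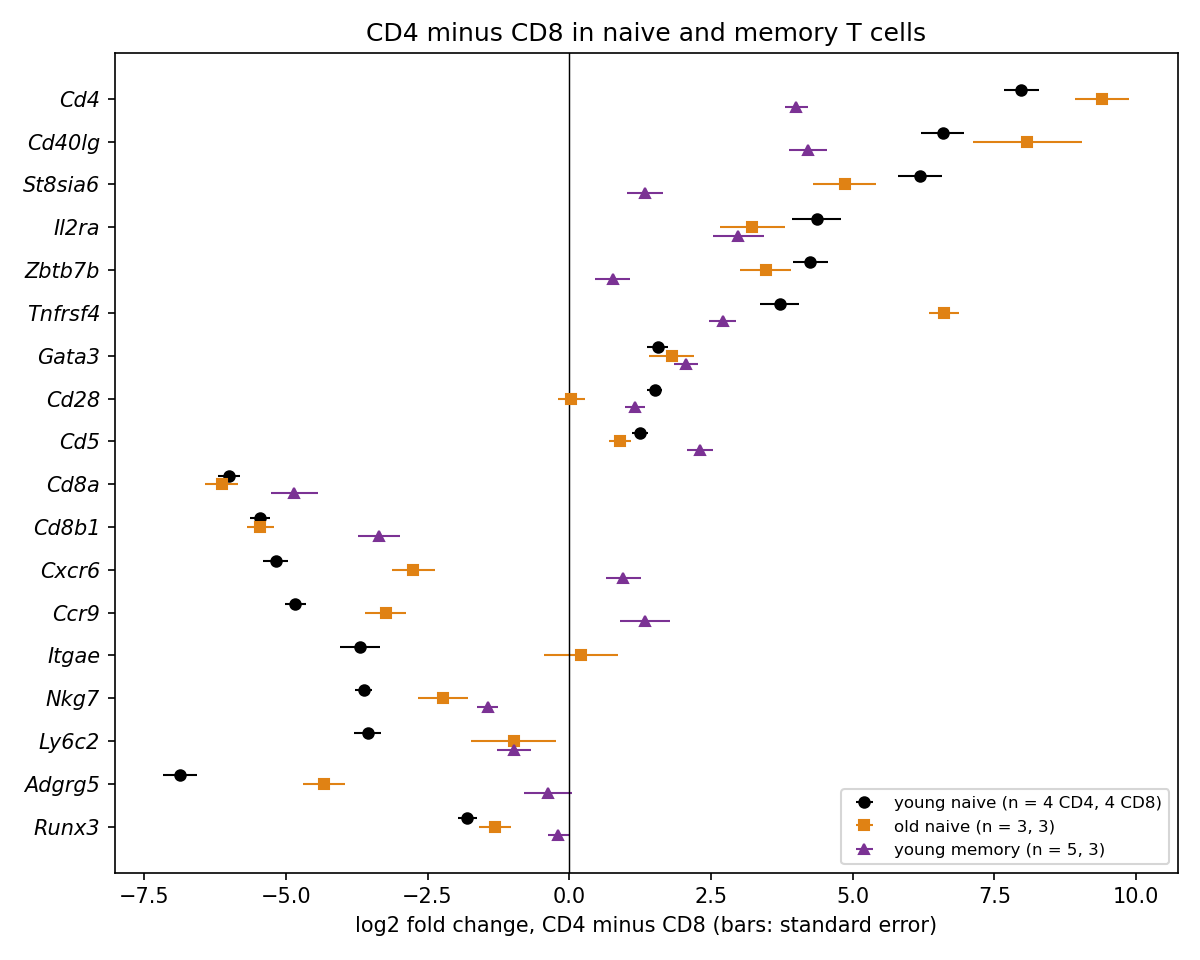
Log2 fold change, CD4 minus CD8, with its standard error for 18 genes in young naive (black circles), old naive (orange squares) and young memory cells (purple triangles). Zbtb7b, St8sia6 and Adgrg5 lie nearer 0 in memory cells, Cd28 and Itgae lie near 0 in old naive cells, and Itgae had too few counts to be tested in memory cells.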

How the data were processed

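Spleen T cells were sorted by flow cytometry and sequenced from poly(A) 3' ends with molecular identifiers of 10 bp, per the labels' protocols; no source says whether reads were collapsed by identifier. The deposited values are raw counts per gene, and sabre (80faf94), STAR and featureCounts (2.0.1) are named with the builds GRCm38.p6 and mm10, without roles, per the submitters' processing notes. Of 55484 rows, 26 with a date in place of a gene name were left out (about 0.2% of counts), which leaves 55458 genes. Levels are CPM of the remaining total. Differences are CD4 minus CD8, from edgeR 4.0.16 (R 4.3.3, limma 3.58.1) with TMM scaling, filterByExpr (minimum count 10, minimum total 15) and the quasi-likelihood test, Benjamini-Hochberg adjusted over all genes tested at a threshold of 0.05. The fit held only the groups compared, and interactions held 4 groups. Standard errors were derived from the F statistic. The fits were tested on simulated data.

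Named genes were those with adjusted p under 0.05, non-overlapping libraries and a mean of 20 CPM or more on the higher side, the 12 highest and 12 lowest, up to 4 called members of each list, and the 5 highest and 5 lowest of each interaction; others were named after their values had been seen. The rankings left out Xist, Tsix, chromosome Y, Gm and Rik models, pseudogenes, antisense genes, and immunoglobulin and T cell receptor segments. Members and lists were chosen with earlier results of these data known. Gene coordinates come from GENCODE M21 and promoters from RefSeq. Total counts per library limit the precision, since 1 count is worth up to 0.727 CPM. Alternatives were RLE scaling, no filter, DESeq2 1.42.0, a replicate block, each library left out, and all spleen T cell groups in 1 fit. A minimum change of 2-fold was a further one. Added after the data had been seen were the counts without adipocyte-rich and immunoglobulin genes. Intervals and floors cover counting error only. Some genes are not reported here.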

Additional observations from a re-analysis of the deposited data

Results flagged for a closer look

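In a group of 4 libraries 1 library stood far from the other 3 for 12 level and group pairs among the named genes. Chance alone flags about 1 in 20 groups, a rate that need not hold where a group has few or no counts. The Cav1, Lep and Prelp values given for CD4 naive libraries are 1 count each. Lep, Col3a1 and Foxp3 had no counts in the other libraries of the flagged group. The young naive comparison named 101 genes, each looked at in both groups, and how many of the 12 flags are chance was not tested. In CD4 naive libraries these were the highest Cav1 (0.342 CPM), Lep (0.537 CPM), Prelp (0.571 CPM), Col3a1 (1.03 CPM) and Ly6a (116 CPM) values and the lowest C1qa value (1.61 CPM). In CD8 naive libraries they were the highest Trim30c (243 CPM), Foxp3 (0.893 CPM) and Maf (13.9 CPM) values and the lowest Ly6c1 (4.36 CPM), Cav1 (76.4 CPM) and Sla2 (45.0 CPM) values.

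The CD4 minus CD8 difference of young naive cells differed from that of young memory cells, by an interaction test past the threshold, in the genes given here as log2 values. They were 13.11 for Hbq1b, 10.06 for Ermap (11.50 without CD8 naive replicate 1), 9.59 for Gfi1b, 9.37 for Rhd and 9.36 for Slc38a5 (8.36 without CD4 naive replicate 1, 8.73 without CD8 memory replicate 4). They were -14.49 for Adipoq (-15.07 without CD4 naive replicate 2), -11.65 for Cav1 (-13.13 without CD4 naive replicate 1, -9.18 and no longer called without CD4 memory replicate 1, adjusted p = 0.99985), -10.82 for Plin4 (-9.48 and no longer called without CD4 memory replicate 3, adjusted p = 0.99975), -9.87 for Dpt (-8.47 and no longer called without CD4 memory replicate 1, adjusted p = 0.99985) and -9.62 for Sod3 (-8.99 without CD4 memory replicate 3). Where a group is at 0 counts, as for Plin4 in CD4 naive cells, a fitted value depends on the prior count. Of the genes higher in CD4 naive cells, the values were 3.98 for Cd4, 2.39 for Cd40lg, 4.87 for St8sia6, 3.51 for Zbtb7b, 1.76 for Ly6c1, 4.05 for Pdlim4, 3.91 for Xylt1, 3.98 for Dusp5, 2.43 for Ecm1, 7.70 for Jchain and 2.68 for Foxp3. Of those lower, they were -6.19 for Trim30c, -6.47 for Adgrg5, -2.09 for Cd8b1, -6.11 for Cxcr6, -6.15 for Ccr9, -3.07 for Haao, -2.94 for Itgae, -2.17 for Nkg7 and -1.58 for Runx3.

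The young naive difference differed from the old one in the same kind of test. The values were 4.64 for Fasl, 3.78 for Klre1, 3.71 for Gzma, 3.52 for Arhgap29 (4.30 without old CD4 naive replicate 1) and 2.94 for Lrrk1. They were -10.70 for Trim30c (-8.23 without old CD4 naive replicate 1, -8.26 without young CD8 naive replicate 1), -5.86 for Angptl2 (-6.79 without young CD4 naive replicate 3, -5.21 without old CD4 naive replicate 3), -4.71 for Tshz2 (-5.42 without young CD4 naive replicate 1), -4.46 for Ccdc80 (-6.30 without young CD4 naive replicate 1) and -4.15 for Nrp1 (-4.74 without old CD8 naive replicate 2). Trim30c lost its call in 9 alternative fits (adjusted p up to 0.10), among them those without young CD8 naive replicate 1 and without each young CD4 naive or old CD8 naive library in turn. Nrp1 lost its call in 5 (up to 0.084), Lrrk1 in 5 (up to 0.063), Klre1 in 2 (up to 0.057) and Gzma in 1 (0.052). Lineage genes had -2.87 for Tnfrsf4, -2.50 for Adgrg5, -2.41 for Cxcr6, -1.60 for Ccr9 and -3.87 for Itgae.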

How the results depend on the processing

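The 1736 genes called between young CD4 naive and CD8 naive cells were 1728 with RLE scaling, 1962 with no filter on low counts, 1962 with DESeq2, 1284 with all spleen T cell groups in 1 fit and 1347 to 1791 with 1 library left out. A minimum change of 2-fold left 977. The interaction with subset called 2218 genes, and 1681 to 2367 with 1 library left out. The interaction with age called 92 genes, and 400 with no filter, 199 with DESeq2, 56 with the replicate block, 44 with all spleen T cell groups in 1 fit and 36 to 290 with 1 library left out. The old naive comparison called 947 genes, and 1984 with no filter, 1756 with all spleen T cell groups in 1 fit and 342 to 1809 with 1 library left out. The young memory comparison called 1752 genes, and 928 with the replicate block and 1117 to 1715 with 1 library left out. The cause of these changes was not tested. Same-numbered libraries had correlations of their deviations from the group mean between -0.055 and 0.052 in young naive, -0.131 and 0.044 in old naive and -0.095 and 0.117 in young memory cells, so the numbers were not taken to pair them. In young naive cells the replicate block gave 1588 calls (798 higher, 790 lower). Of 101 genes named for the young naive comparison 73 kept their call in all 13 alternative fits, a minimum change of 2-fold aside, and 0 changed direction. Of the 5 highest and 5 lowest of each interaction, those of Cav1, Dpt and Plin4 with subset lost their call in at least 1 alternative. So did those of Trim30c, Nrp1, Lrrk1, Klre1 and Gzma with age. Interactions of other genes, Cd28, Tnfrsf4, Itgae, Cxcr6, Ccr9, Zbtb7b and Runx3 among them, are given for the main fit only. At the shallowest library 1 count is worth 0.727 CPM, which limits what low genes can show.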

Other observations

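Of 141 tested genes at 1000 CPM or more in either group, 29 were higher in CD4 naive cells and 32 lower. The others were not called. Of all genes tested 7.86% were higher and 7.95% lower. This look at levels of 1000 CPM or more was chosen after the data had been seen. Actb, the cytoplasmic beta-actin, had 48456, 69763, 53886 and 52908 CPM in the CD4 naive libraries, against 21528, 13815, 22083 and 22716 CPM in the CD8 naive libraries (log2 fold change 1.56 ± 0.18, adjusted p = 1.6e-05), which is 5.63% of counts in CD4 naive cells and 2.00% in CD8 naive cells. The genes that follow were picked from those that were higher and stand for no tested group. The Arp2/3 subunit gene Actr2 had 1329, 1375, 1419.8 and 1269 CPM in the CD4 naive libraries, against 559.7, 409, 544 and 522 CPM in the CD8 naive libraries (log2 fold change 1.48 ± 0.14, adjusted p = 2.2e-06). Myh9, a non-muscle myosin heavy chain, had 4867, 11443, 9214 and 4789 CPM in the CD4 naive libraries, against 4114, 1506, 3184 and 3297 CPM in the CD8 naive libraries (log2 fold change 1.40 ± 0.31, adjusted p = 0.0052), and Cfl1, which severs actin filaments, averaged 1288 ± 885 CPM in CD4 naive cells and 539 ± 105 CPM in CD8 naive cells (SD, n = 4 each, adjusted p = 0.011). Myh9 and Trac were highest in the same pair of CD4 naive libraries, replicates 2 and 3. Cdkn1b, the cell cycle inhibitor p27, had 978, 1838, 2064 and 1373 CPM in the CD4 naive libraries, against 546, 275, 479.6 and 525 CPM in the CD8 naive libraries (log2 fold change 1.85 ± 0.25, adjusted p = 6.4e-05).

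Genes of ribosomal proteins lay the other way. Of 76 tested, 25 were lower in CD4 naive cells and 1 was higher (Rps25), beside 7.95% and 7.86% of all genes tested. The median log2 fold change was -0.32, against -0.01 for all genes tested. With RLE scaling the counts were 25 and 1, with a median of -0.31. Rps2, a protein of the small subunit, averaged 393 ± 55.3 CPM in CD4 naive cells and 1115 ± 113 CPM in CD8 naive cells (log2 fold change -1.44 ± 0.14, adjusted p = 3.1e-06), Rpl31 of the large subunit 1573 ± 319 CPM in CD4 naive cells and 3414 ± 464 CPM in CD8 naive cells (log2 fold change -1.05 ± 0.16, adjusted p = 2.8e-04), and Rps25 3937 ± 437 CPM in CD4 naive cells and 2079 ± 549 CPM in CD8 naive cells (log2 fold change 0.99 ± 0.19, adjusted p = 0.0019; SD, n = 4 each). Ribosomal protein genes have many near-identical pseudogenes, and no source says how shared reads were counted.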
